A study of Homo sapiens with 22 samples.

Results

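JUN binding in LNCaP cells was compared between cells transfected with an siRNA against FOXA1 (siFOXA1) and cells transfected with a negative control siRNA (siNC). The members are 3613 of the 871377 enriched regions in the 22 lists of the series: 2038 of the 2421 regions of the siNC list and 1575 of the 1964 regions of the siFOXA1 list. The other 383 and 389 regions were set aside because they were overlapped in 17 or more of the 22 lists, whatever the factor. A siNC region was called kept when it shared at least 1 bp with a siFOXA1 region and lost when it did not, and a siFOXA1 region without a siNC partner was called new.

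JUN is a basic leucine zipper protein that binds DNA as a dimer with FOS, other JUN or ATF family proteins, and such AP-1 dimers switch on genes in response to growth factors and stress. FOS-JUN dimers prefer the AP-1 motif, whereas JUN-ATF dimers prefer a motif that is 1 base longer, the cyclic AMP response element (CRE). FOXA1 is a forkhead protein known as a pioneer factor: it binds its motif in closed chromatin and helps other factors, the androgen receptor above all in luminal prostate cells, to reach the DNA.

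The study profiled FOXA2, JUN and FOSL1 binding, 2 histone marks and accessible chromatin in 3 human prostate cancer cell lines, and asked how FOXA proteins direct AP-1. LNCaP cells are luminal and express the androgen receptor, PC3 cells lack it and NCI-H660 cells are neuroendocrine. Some of the other lists used below came from PC3 and NCI-H660 cells transfected with an siRNA against FOXA2 (siFOXA2). Others came from cells given an LSD1 inhibitor, ORY-1001 in PC3 and NCI-H660 cells or C12 in PC3 cells. Further lists came from LNCaP cells overexpressing FOXA2 or expressing the mutant FOXA2K265R. Neither of the LNCaP cultures compared here had a labelled transgene. Both grew in the same serum-containing medium and were precipitated with the same anti-JUN antibody, so that the siRNA was the labelled difference. There was 1 list per condition, so no test was possible. All intervals are 95% intervals (Wilson for a share, Newcombe for a difference), they cover the counting error of regions only, and regions of 1 list are not replicates. The lists hold no RNA or protein levels, so neither the silencing of FOXA1 nor the identity of the cells was checked here, and the sequencing depth is unknown.

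The DNA of 8 regions is shown to illustrate the motifs counted below. In each 90-base window (hg19, plus strand) capitals mark the AP-1 motif TGACTCA, its reverse complement TGAGTCA, the CRE TGACGTCA, or the forkhead motif TGTTTAC or TGTTTGC in either orientation. The windows below came from lost regions that held an AP-1 and a forkhead motif close together, and they were chosen after the values were seen. They lay 20416 bp from the nearest protein-coding start (KCTD6, chr3:58457210-58457299), in an intron of ERI3 (chr1:44749277-44749366) and 56859 bp from POU1F1 (chr3:87382634-87382723). The KCTD6 and POU1F1 regions were found in 15 other lists and the ERI3 region in 13. In 15 other lists the setting aside of widely shared regions allowed a siNC region only to be lost. The KCTD6 and POU1F1 windows therefore illustrate the motifs and not a loss under siFOXA1.
KCTD6, lost: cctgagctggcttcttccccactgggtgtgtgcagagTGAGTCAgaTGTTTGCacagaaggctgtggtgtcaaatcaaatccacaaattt
ERI3, lost: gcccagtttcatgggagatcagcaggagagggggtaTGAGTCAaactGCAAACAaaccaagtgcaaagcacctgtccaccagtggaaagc
POU1F1, lost: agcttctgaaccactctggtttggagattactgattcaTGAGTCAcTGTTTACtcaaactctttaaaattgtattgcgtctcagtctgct

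Of the 5 lost regions whose partner in the siNC JUN list of PC3 or NCI-H660 had the highest scores, 3 held an AP-1 or CRE motif without a forkhead motif, and 2 of them are shown. One lay in an intron of CAPN2, which encodes a calpain protease (chr1:223895020-223895109), and another in an intron of TRIO, which encodes a guanine nucleotide exchange factor (chr5:14264870-14264959).
CAPN2, lost: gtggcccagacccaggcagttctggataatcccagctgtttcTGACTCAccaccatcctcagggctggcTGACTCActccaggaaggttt
TRIO, lost: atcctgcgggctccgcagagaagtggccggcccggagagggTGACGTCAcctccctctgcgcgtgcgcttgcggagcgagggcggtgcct

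The kept regions shown for contrast lay near listed genes. They were an intron of the E-cadherin gene CDH1 (chr16:68790229-68790318), an intron of MAFK, which encodes a small MAF protein (chr7:1576947-1577036), and a site 6143 bp from a start of the stress-induced factor gene ATF3 (chr1:212732327-212732416). CDH1 and MAFK also held a forkhead motif, so that the motif was found on both sides of the comparison.
CDH1, kept: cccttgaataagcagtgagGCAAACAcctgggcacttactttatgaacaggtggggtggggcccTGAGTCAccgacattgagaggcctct
MAFK, kept: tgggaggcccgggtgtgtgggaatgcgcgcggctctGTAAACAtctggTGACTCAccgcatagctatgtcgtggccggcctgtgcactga
ATF3, kept: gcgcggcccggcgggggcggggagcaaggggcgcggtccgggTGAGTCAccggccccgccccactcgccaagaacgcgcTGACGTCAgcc

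Of the 2038 siNC regions, 826 were kept under siFOXA1 (40.5%, 38.4 to 42.7%) and 1212 were lost. Of the 1575 siFOXA1 regions, 747 were new (47.4%, 45 to 49.9%) and 828 matched a siNC region. The log2 ratio of region numbers, siFOXA1 over siNC, was -0.37 (-0.47 to -0.28). It was -0.09 (-0.27 to 0.09) once regions in 6 or more lists were removed and -1.01 in the accessible subset described below, so the difference in length depended on which regions were counted. A near match was uncommon among the lost regions: 9 of 1212 (0.743%) had a siFOXA1 member within 500 bp and 37 (3.05%) within 5 kb. In 1 lost and 6 new regions the partner in the other list was among those set aside.

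The classes differed in how often other experiments of the series had a region at the same place. Kept regions were overlapped by a median of 9 of the 20 other lists, lost regions by 6 and new regions by 4. The kept share was 8.20% (4.51 to 14.4%) for the 122 siNC regions found in none of the 20 other lists. It was 30.2% (25.9 to 34.8%) for the 401 regions found in 4 to 6 other lists and 78.1% (72.3 to 83%) for the 224 found in 13 or 14. In 15 other lists a kept region would reach the limit of 17 through the LNCaP lists themselves, so the 14 siNC regions found there could only be lost and are left out of this series. The number of lists was also what the removal used, so these shares are a description. Within the siNC list kept regions were also wider than lost ones, with medians of 282 and 252 bp, and within the siFOXA1 list matched regions were wider than new ones, with 263 and 227 bp, and the kept share rose from 27.3% in the narrowest quartile of siNC regions to 64.2% in the widest. The siNC list carries no score, so width was the only measure of region strength on that side.

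Part of the kept class lay in repeated DNA. At least 5 copies of GGAAT or its reverse complement, the unit of a human satellite repeat, stood within 100 bp of the centre in 11.4% of kept, 0.743% of lost and 3.21% of new regions, and 94 of the 103 siNC regions with such copies were kept. Chromosome Y held 58 kept and 11 lost regions. Within 1 Mb of an assembly gap of at least 1 Mb lay 19.1% of kept, 4.46% of lost and 13.9% of new regions. The FOXA2 list of FOXA2-overexpressing LNCaP cells (FOXA2OE), in which the forkhead motif was no more frequent than in its surroundings (6.14% against 7.25%), overlapped 60.2% of kept, 11.2% of lost and 32.7% of new regions. How far such places set the kept share was not tested, and the main results below are therefore given for all members and for an accessible subset chosen after the values were seen. Where a result is given without naming the subset, it covers all members. That subset held the members that overlapped an ATAC region of PC3 or NCI-H660 and lay outside the FOXA2OE FOXA2 list: 292 kept, 892 lost and 297 new regions. Its kept share was 24.7% (22.3 to 27.2%). Accessible siNC regions, inside or outside the FOXA2OE FOXA2 list, were kept in 39.0% (36.7 to 41.4%). Regions outside that list, accessible or not, were kept in 23.4% (21.3 to 25.7%) and regions inside it in 78.5%. No accessibility list of LNCaP was analysed here.

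Among all members the lost class held the most AP-1, CRE and forkhead motifs. Motifs were counted within 100 bp of the region centre on both strands, beside windows of the same size 2 kb to each side. Lost regions held the AP-1 motif in 36.6% (33.9 to 39.3%), kept regions in 19.5% and new regions in 17.7%, against 2.06 to 3.14% of the nearby windows. The CRE was present in 7.18% of lost, 2.91% of kept and 1.07% of new regions and in at most 0.0605% of the nearby windows. The forkhead motif was present in 19.6% of lost regions (17.5 to 22%), against 5.73% of the windows nearby. In kept regions it reached 6.90% against 6.23% nearby and in new regions 5.62% against 6.43%, so that its excess over the surroundings was seen in the lost class and not beyond the counting interval in the other classes.

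In the accessible subset, which also leaves out the FOXA2OE FOXA2 list, the AP-1 difference closed and the forkhead difference did not. Accessibility alone did not close the AP-1 difference. Of accessible siNC regions with an AP-1 motif 26.9% were kept, against 39.0% of all accessible ones. Outside the FOXA2OE FOXA2 list, accessible or not, these shares were 25.4% and 23.4%. In that list, after the same removal, 1.69% of regions held an AP-1 motif. Kept regions held an AP-1 motif in 49.7% (44 to 55.4%) and lost regions in 45.9% (42.6 to 49.1%), a difference of -3.81 percentage points (lost minus kept, -10.4 to 2.77). The CRE was present in 7.88% and 8.74%, a difference of 0.868 points (-3.16 to 4.15). The forkhead motif was present in 9.59% of kept (6.72 to 13.5%) and 21.5% of lost regions (19.0 to 24.3%), a difference of 11.9 points (7.25 to 16). The nearby windows held it in 4.28% (2.92 to 6.24%) and 5.21% (4.27 to 6.34%), so that within the subset kept regions too stood above their surroundings. With a looser forkhead motif of 8 forms the shares were 24.7% of kept and 49.9% of lost regions, against 28.6% and 32.0% nearby. New regions of the subset held the AP-1 motif in 37.7%, the CRE in 2.36% and the forkhead motif in 7.74%. Over all members the median GC content of the centre windows was 45.5% in the lost and 41.5% in the kept class. No GC value is given for the subset, and a relation of GC content to the forkhead difference was not tested.

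**Figure D1:**
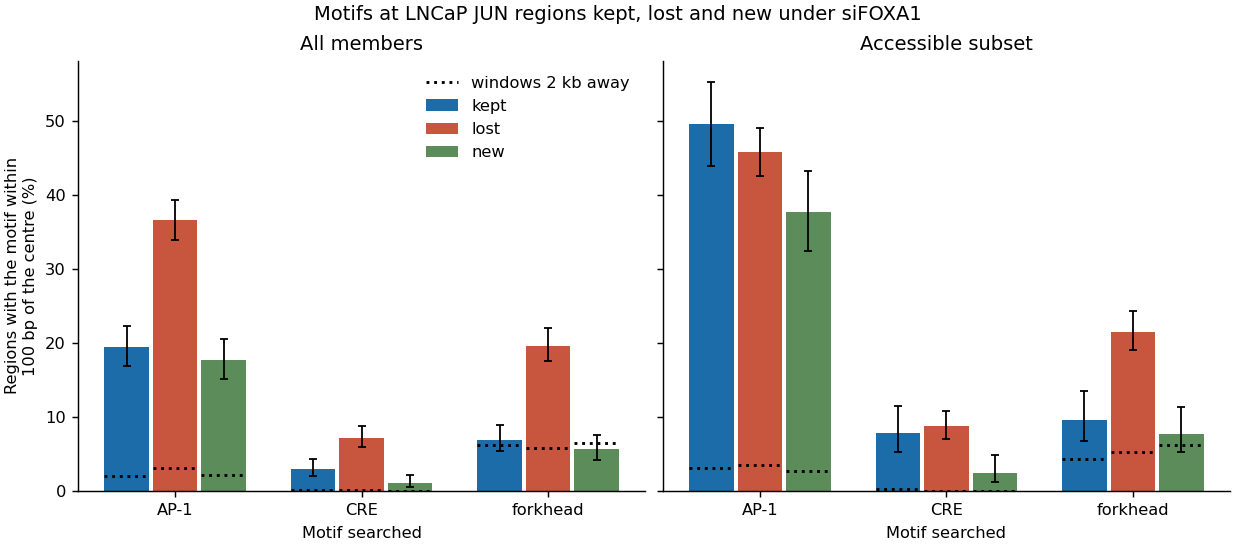
Share of regions (percent) with the AP-1, CRE and forkhead motif within 100 bp of the centre, for kept, lost and new regions among all members (left) and in the accessible subset (right). Bars are shares, error bars are 95% Wilson intervals and dotted lines are windows 2 kb away. The lost bar stands alone for the forkhead motif in both panels (19.6% and 21.5%), whereas for AP-1 the kept and lost bars overlap in the accessible subset.

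The position of the motifs within the regions followed the same split. AP-1 motifs in the accessible subset gathered at the region centre in all 3 classes: the bin starting at the centre and 25 bp wide held one in 18.5% of kept, 13.6% of lost and 13.8% of new regions. Among all members with an AP-1 motif the median distance from the centre was 20 bp in kept, 22 bp in lost and 18 bp in new regions. Forkhead motifs were spread more broadly. In lost regions of the subset the same bin held one in 4.37%, against 1.46% in the bin farthest upstream. Kept regions stood at 1.71% and 0.685% in these bins and new regions at 1.35% and 0.337%, each from few motifs.

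**Figure D2:**
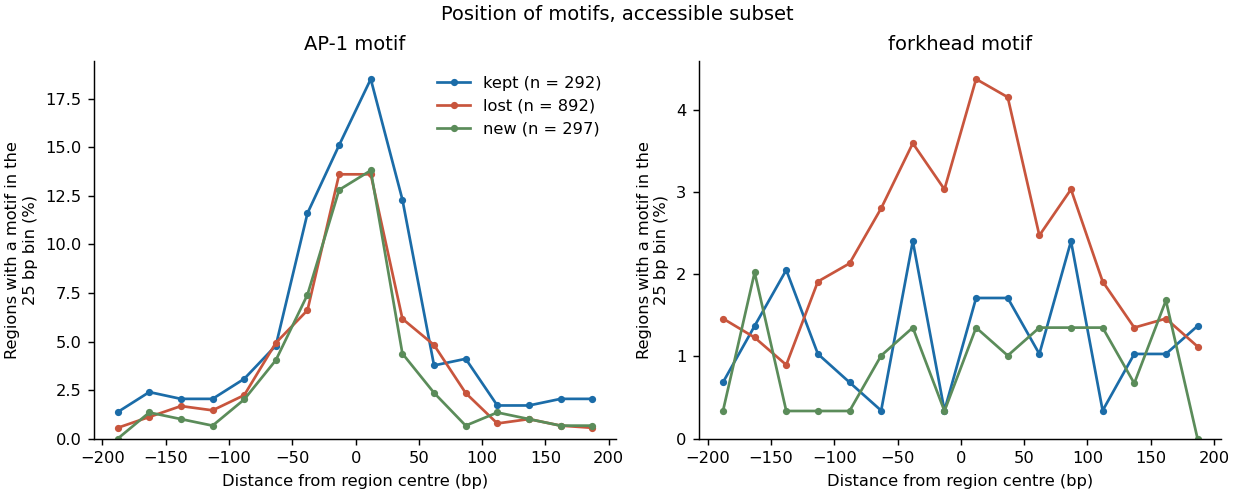
Share of accessible-subset regions (percent) with a motif in each 25 bp bin, against the distance of the bin from the region centre in bp, for kept (292), lost (892) and new (297) regions. AP-1 motifs peak at the centre in each class, and forkhead motifs form a broad central rise in the lost class only among the 3 classes plotted.

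Seen from the siNC list, regions with a forkhead motif were kept less often. Of 295 such regions 57 were kept (19.3%, 15.2 to 24.2%), against 769 of 1743 without it (44.1%), a difference of -24.8 percentage points (-29.5 to -19.4). In the accessible subset the shares were 12.7% and 27.4%, a difference of -14.7 points (-19.4 to -8.92). Among regions that held an AP-1 motif, 18 of 107 with a forkhead motif (16.8%, 10.9 to 25%) and 143 of 497 without it (28.8%, 25 to 32.9%) were kept, a difference of -12 points (-19.2 to -2.90). That difference was -11.4 points (-18.9 to -2.07) in the accessible subset. Regions with a forkhead motif and no AP-1 motif were kept in 20.7%, and in 9.24% (5.24 to 15.8%) in the subset. Regions with neither motif were kept in 50.2%, and in 26.6% (23 to 30.6%) in the subset.

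The forkhead difference kept its sign in the other strata examined, although the AP-1 regions became few. Away from promoters it was -27.4 points (-32.2 to -21.8), among regions that PC3 JUN also occupied under siNC -27.2 (-34.0 to -19.4), and among regions found in 4 or fewer of the 20 other lists -14 (-21.0 to -4.17). In the narrower and the wider siNC regions, split at the median width, it was -19.3 (-24.8 to -12.4) and -29.1 (-36.5 to -20.4). Among regions that held an AP-1 motif and lay in 4 or fewer other lists, 4 of 19 with and 29 of 130 without a forkhead motif were kept, a difference of -1.26 points (-16.1 to 21.9) that was not detectable at these numbers. Of the 89 lost regions with both motifs, 21 had them at most 10 bp apart, 19 at 11 to 30 bp and 49 farther apart, with a median gap of 33 bp. The 18 kept regions with both motifs had a median gap of 27 bp.

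A forkhead motif went with a lower kept share after siFOXA2 in the other lines as well, with other cells, another silenced factor and list lengths that differ. In PC3 cells, where 12% of 23504 siNC JUN regions were kept, the share was 12.6% (11 to 14.4%) with both motifs and 13.6% (12.9 to 14.2%) with AP-1 alone. In NCI-H660 cells, where 47.3% of 18022 were kept, it was 44.1% (38.7 to 49.5%) and 52.7% (50.6 to 54.7%). Without an AP-1 motif the share with and without a forkhead motif was 6.95% and 11.2% in PC3 cells (-4.21 points, -5.46 to -2.83) and 39.3% and 47.5% in NCI-H660 cells (-8.20 points, -10.7 to -5.69). The interval of the difference included 0 for PC3 regions with an AP-1 motif (-0.979 points, -2.74 to 0.964). Whether the differences vary between lines was not tested.

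**Figure D3:**
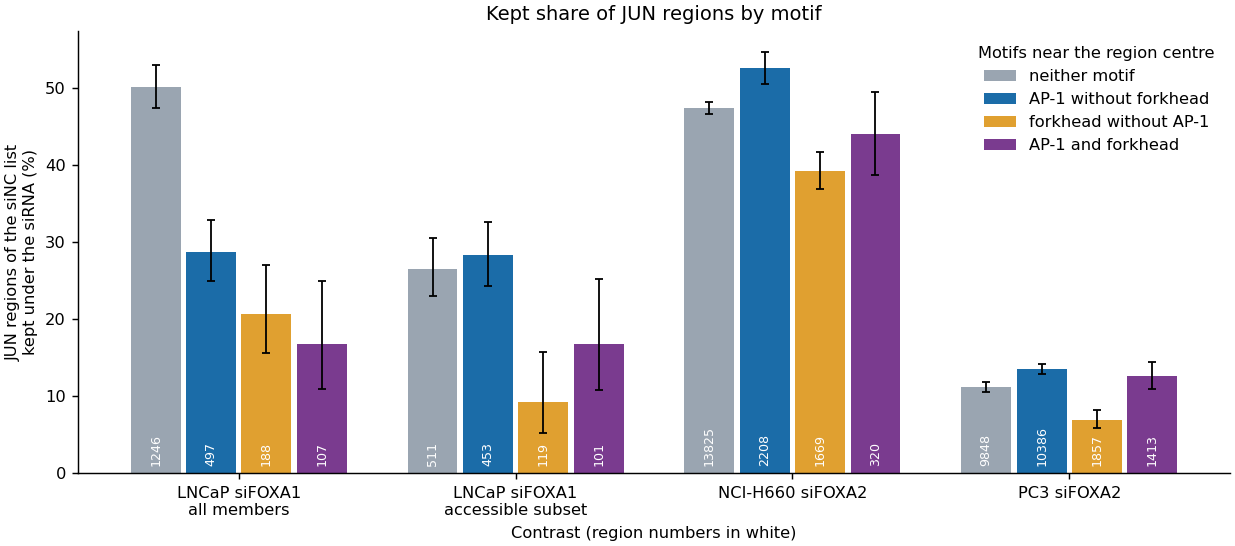
Share of siNC JUN regions kept under the siRNA (percent, with 95% Wilson intervals) by motif combination, for LNCaP siFOXA1 over all members and in the accessible subset and for siFOXA2 in NCI-H660 and PC3 cells. White numbers are the regions behind each bar. The bars with a forkhead motif stand below the matching bars without it in LNCaP (16.8% against 28.8% with AP-1), in NCI-H660 (44.1% against 52.7%) and, among regions without AP-1, in PC3 (6.95% against 11.2%).

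Overlap with other JUN lists did not single out the lost class. The siNC JUN list of PC3 overlapped 64.5% of kept, 48.2% of lost and 30.7% of new regions, and that of NCI-H660 overlapped 58.4%, 40.4% and 28.2%. At least 1 of these lists overlapped 78.9% of kept, 65.5% of lost and 44.8% of new regions. In the accessible subset these shares were 84.6%, 76.8% and 57.2%. JUN regions of LNCaP cells expressing the mutant FOXA2K265R overlapped 32.9% of kept and 33.4% of lost members, a difference of 0.486 points (-3.70 to 4.61), and those of FOXA2OE cells 15.4% and 13.9% (-1.51 points, -4.71 to 1.57). New members stood at 26.8% for FOXA2K265R JUN (new minus kept -6.16 points, -10.6 to -1.62) and at 12.3% for FOXA2OE JUN (-3.06 points, -6.46 to 0.375). Kept and lost regions differed for these lists only in the subset. There FOXA2K265R JUN overlapped 64.4% of kept, 39.0% of lost and 40.4% of new regions and FOXA2OE JUN 30.8%, 16.6% and 18.9%. FOSL1, the JUN partner profiled in PC3 under siNC, overlapped 53.5% of kept, 13.9% of lost and 25.4% of new members and 25.7%, 10.8% and 17.5% in the subset. No list outside the comparison overlapped 1.21% of kept, 9.24% of lost and 16.6% of new members.

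For FOXA2 of PC3 cells the order of the classes depended on the members used. Over all members, the vehicle FOXA2 list of PC3 overlapped 54.7% of kept, 36.1% of lost and 24.6% of new regions. The other FOXA2 lists of vehicle-treated PC3 cells, whose antibody is not labelled, overlapped 18.4% and 16.7% of kept, 45.8% and 42.9% of lost and 15.4% and 15.1% of new regions, the opposite order of kept and lost. In the accessible subset each of the 5 FOXA2 lists of PC3 overlapped a larger share of lost than of kept regions. That subset leaves out members of another FOXA2 list, the FOXA2OE one, which overlapped 60.2% of kept and 11.2% of lost regions. The choice of the subset therefore bears on FOXA2 overlap, and the subset shares are a description only. The vehicle list overlapped 39.1% of lost and 27.1% of kept regions, a difference of 12.1 points (5.85 to 17.8), and the others 57.8% and 55.3% of lost against 38.4% and 33.2% of kept regions. After the LSD1 inhibitors ORY-1001 and C12 the shares were 29.0% and 23.5% of lost against 16.8% and 12.7% of kept regions. Over all members their order was the opposite, with 29.2% and 24.3% of lost against 49.0% and 43.2% of kept regions. FOXA2 of vehicle-treated NCI-H660 cells overlapped 12% of lost and 12.3% of kept regions in the subset. Over all members it overlapped 13.6% of lost and 48.1% of kept regions. FOXA2 and FOXA1 bind the same motif, and FOXA1 binding in LNCaP was not analysed here.

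**Figure D4:**
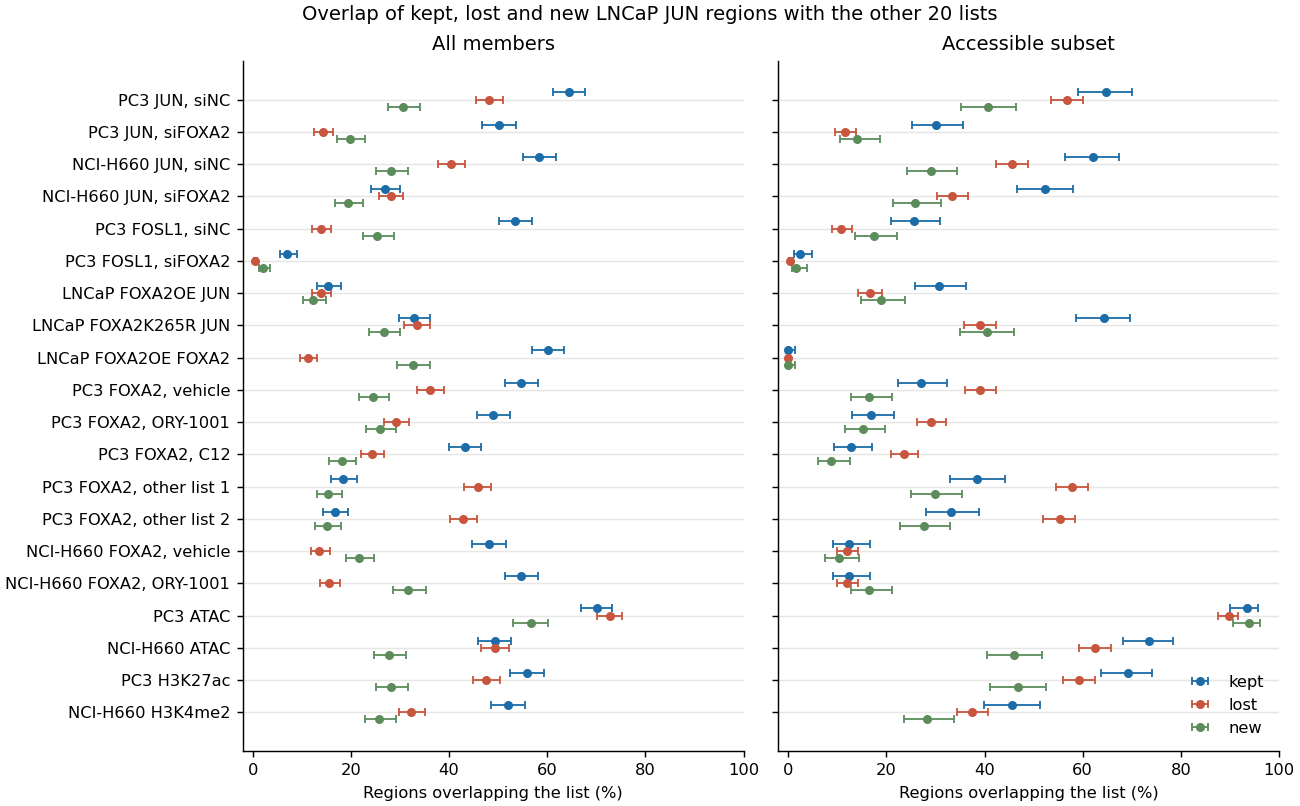
Share of kept, lost and new LNCaP JUN regions (percent, with 95% Wilson intervals) that overlap each of the 20 other lists by at least 1 bp, over all members (left) and in the accessible subset (right). In the right panel the lost class lies above the kept class for the FOXA2 lists of PC3 and below it for the JUN lists. The FOXA2OE FOXA2 row is set by the choice of the subset, and so is overlap with at least 1 of the ATAC lists. The rows of the other FOXA2 lists are not fixed, but leaving out the FOXA2OE FOXA2 list bears on them. The separate ATAC rows are not fixed, at 93.5% of kept and 89.8% of lost regions for PC3 and 73.6% and 62.6% for NCI-H660.

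Regions at the same place could fare differently in another line. Of the kept members that PC3 JUN also occupied under siNC, 67.4% (359 of 533) still had a PC3 JUN region under siFOXA2, against 26.9% (157 of 584) of the lost members. The median PC3 score was 184 for the kept and 215 for the lost members. The order was the same in the accessible subset, with 43.4% (36.5 to 50.5%) and 20.5% (17.2 to 24.2%), at median scores of 308 and 237. In NCI-H660 cells the order was the opposite over all members, with 42.1% (203 of 482) of kept and 61.8% (303 of 490) of lost members still occupied under siFOXA2, at median scores of 278 and 288. It turned in the accessible subset, where 80.1% (73.7 to 85.3%) of kept and 68.2% (63.5 to 72.6%) of lost members were still occupied, at median scores of 662 and 343. Accessible chromatin of PC3 or NCI-H660 covered 75.7% of kept, 80.6% of lost and 60.1% of new members. H3K27ac of PC3, a mark of active enhancers and promoters, overlapped 55.9% of kept, 47.6% of lost and 28.2% of new members and 69.2%, 59.3% and 46.8% in the accessible subset.

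The siFOXA1 list, unlike the siNC list, carries a score, taken to be the -log10 q-value of the peak caller multiplied by 10. Regions that matched siNC scored higher (median 132, quartiles 80 and 228) than new regions (median 57, quartiles 35 and 91.5). From the lowest to the highest score decile the share matched by siNC rose from 12% to 87.9%. The share with an AP-1 motif did not follow it: it was 4.43% in the lowest decile, 31.0% in the seventh decile and 6.37% in the highest. The share found in 10 or more other lists was 8.23%, 37.3% and 53.5% in these deciles, so that the highest scores lay mostly at places that other experiments also called.

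**Figure D5:**
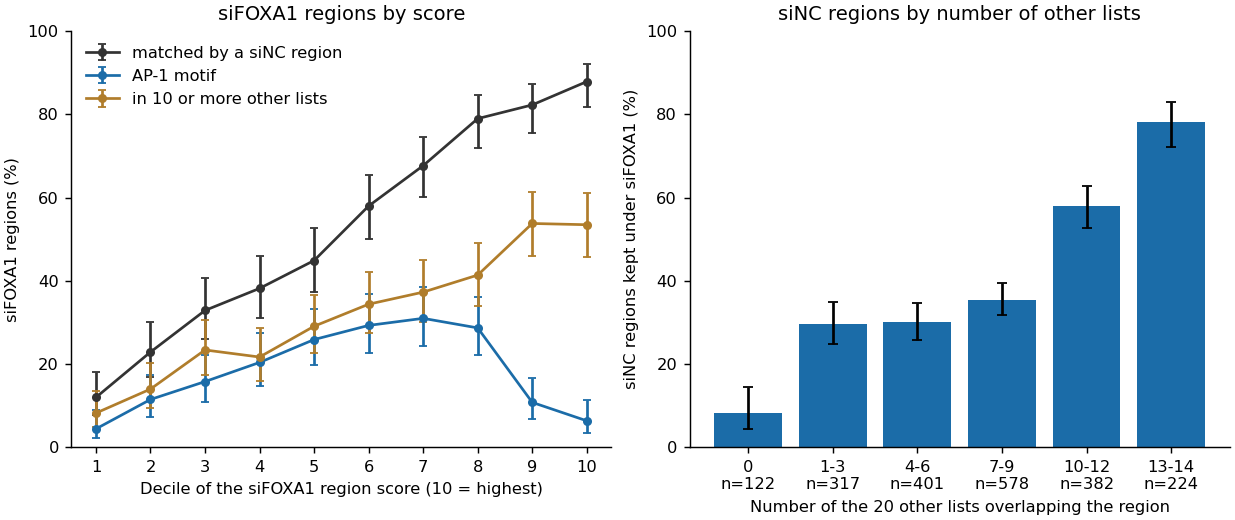
Left: share of siFOXA1 regions (percent) matched by siNC, with an AP-1 motif, and found in 10 or more of the 20 other lists, by decile of the siFOXA1 score. Right: share of siNC regions kept (percent) by the number of other lists. Error bars are 95% Wilson intervals. The AP-1 share peaks at 31.0% in the seventh decile and falls to 6.37% in the highest, and the kept share rises from 8.20% to 78.1%; regions in 15 other lists, which the removal allows only to be lost, are left out.

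Of the 5 kept regions with the highest siFOXA1 scores, 5671 to 2096, those at chr22:18717888-18718206 and chr10:98561329-98561554 were found in 12 and 11 other lists, and 2 lay on the long arm of chromosome Y and were found in 3 and 2. The AP-1 motif was present only in the first, 84951 bp from the nearest protein-coding start, USP18. The 5 highest-scoring new regions scored 1731 to 804, held none of the AP-1, CRE or forkhead motifs and were found in 6 to 12 other lists. Those at chr18:23841149-23841354, in an intron of TAF4B, and chr11:104010500-104010704, in an intron of PDGFD, carried scores of 1731 and 819 and lay outside the ATAC lists. Among the lost regions, the highest score in another line, 27170, belonged to chr19:27733894-27734113, which lay 1969945 bp from the nearest protein-coding start and held none of the 3 motifs. The next, CAPN2 (2800), TRIO (2524), a site 50320 bp from ANKRD10 (2338) and an intron of MAPK8IP1 (2207), were accessible in PC3 or NCI-H660. The ANKRD10 site held 6 AP-1 motifs within 100 bp of its centre, and that of MAPK8IP1, which encodes a scaffold of the JUN kinase pathway, held none. The widest lost region, chr17:72510144-72511053 (910 bp), was found in 4 other lists.

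By position, lost regions lay nearer to genes than kept or new ones. Promoters, within 1 kb of a protein-coding start in GENCODE 44, held 13.8% of lost (12 to 15.8%), 8.72% of kept and 5.76% of new regions. Introns held 35.7%, 27.6% and 28.2%, and intergenic DNA 46.9%, 61.6% and 63.7%. In the accessible subset the promoter share was 17.8% of lost and 22.3% of kept regions, a difference of -4.44 points (-10.1 to 0.695), so that the order over all members was not seen there. Of the promoter regions of the siNC list 30.1% (72 of 239) were kept, against 41.9% elsewhere. After siFOXA2 the shares were 7.57% against 12.4% in PC3 cells and 70.1% against 40.6% in NCI-H660 cells.

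Of 20136 protein-coding genes, 3.77% had a siNC region and 2.18% a siFOXA1 region within 10 kb of an annotated transcript start. A kept region lay that near to 1.28% of genes, a lost region to 2.58% and a new region to 0.934%. The gene lists below are read against these shares and are descriptions only.

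Of 16 AP-1 and ATF genes, which encode JUN itself and its possible dimer partners, 5 had a siNC region (31.2%, against 3.77% of all genes). Each of these regions was kept, with 0 lost and 0 new. A kept region thus lay near 31.2% of these genes, against 1.28% of all genes. Of all siNC regions 40.5% were kept. The other 11 genes had no member region. JUN had 1 kept region over its own start (chr1:59249652-59250086), whose siFOXA1 score was 527, well above the kept median of 132. JUND, the JUN family member active in unstimulated cells, had a kept region over its start that held a CRE (score 245) and a second one 5777 bp away that held an AP-1 motif (219). The second one was nearer to another gene, 366 bp from a start of IQCN. FOSL2, which encodes a FOS family partner, had a kept promoter region with an AP-1 motif (140). ATF3 had the site printed above (167) and its promoter (129), and MAFK the intronic site printed above (75), the lowest score of the group. These 7 regions were found in 5 to 11 other lists, and each was accessible in PC3 or NCI-H660.

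Immediate early genes and feedback regulators of MAP kinase signalling were divided. Of 31 such genes 6 had a siNC region (19.4%), 4 a kept and 3 a lost one (12.9% and 9.68%). The shares of all genes were 3.77%, 1.28% and 2.58%. Both regions of DUSP1, which encodes a phosphatase that switches off MAP kinases, were lost, including the one over its start with a CRE (chr5:172198188-172198470). DUSP10, a phosphatase gene of the same family, kept its promoter region (163) and lost an intronic region with a forkhead motif. The promoter region of KLF6, which encodes a zinc finger factor, was lost. The orphan receptor gene NR4A1 (161), the mRNA decay gene ZFP36 (211) and the antiproliferative gene BTG2 (93) each kept 1 region.

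Of 25 genes of the androgen receptor programme and of luminal cells, 4 had a lost region (16%, against 2.58% of all genes) and 1 of these also a kept region (4.00%, against 1.28%). The 4 genes rested on 3 lost regions, and among all genes too a lost region was more frequent than a kept one. A single lost region over the shared start area of KRT8 and KRT18, the keratins that mark luminal cells (chr12:53343595-53343854), held both an AP-1 and a forkhead motif. It was found in 15 other lists, so the removal allowed it only to be lost, and both keratin genes rest on it. The lost region of KLK4, an androgen-induced protease gene, lay 9837 bp from a start and held an AP-1 motif. CDH1 lost an intronic region with a forkhead motif (chr16:68778719-68778945) and kept the one printed above, with a siFOXA1 score of 107.

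The remaining lists held few members. A lost region lay near 9.09% of the stress and proteostasis genes, against 2.58% of all genes. It lay near 10.0% of the cell cycle genes and 10.0% of the basal and mesenchymal genes. Each of these shares rests on 2 genes. Of 22 stress and proteostasis genes, DDIT3, a stress-induced factor gene, kept a region 55 bp from its start with an AP-1 motif (153). The same region lay over a start of MBD6. The chaperone genes HSP90AB1, at its start, and DNAJA1, 9993 bp from a start, each lost a region with a CRE. Of 20 cell cycle genes, CCND1, which encodes cyclin D1, lost a region 6874 bp from a start with a forkhead motif, and E2F1 lost 1 without any of the 3 motifs. The E2F1 region lay in a coding exon, 9063 bp from a start of E2F1 and 2486 bp from one of NECAB3. Of 20 basal and mesenchymal genes, VIM and MMP1 each lost a distal region. The MMP1 region lay 8745 bp from a start of MMP1 and 3171 bp from one of MMP10. In the same list LAMB3, a basement membrane laminin gene, had the only new region of any list, in its promoter with an AP-1 motif and a score of 49. ENO2, which encodes a neuronal enolase, had the only region among 16 neuroendocrine genes, lost and 8909 bp from a start. This region lay over a start of LRRC23. Of 16 FOXA family and partner genes 1, the histone methyltransferase gene KMT2C, had a region, which was kept at its start (157). Of 81 ribosomal protein genes 1, RPL3, had a lost region (1.23%, against 2.58% of all genes).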

How the data were processed

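Enriched regions from ChIP-seq and ATAC-seq were used as the authors deposited them, as 22 lists on hg19. Per the labels and the submitters' processing notes, reads were checked with FastQC 0.11.9, aligned with BWA 0.7.17-r1188 and converted with SAMtools 1.9, and regions were called with MACS2 2.1.4. The control library, the calling settings and any pooling are not given in the sources used here, so each list was taken as 1 library. Different thresholds or depths of the 2 LNCaP libraries and an effect of the siRNA on list length cannot be told apart. The score that the authors deposited in 20 lists is a whole number, read as 10 times -log10 q from its range, with a minimum of 13 in the siFOXA1 list. The LNCaP siNC JUN and FOXA2OE FOXA2 lists have no score.

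Groups came from the labels. Regions overlapped in 17 or more of the 22 lists were removed, a count that includes the region's own list, and the rest were compared by at least 1 bp. Annotation was GENCODE 44 lifted to hg19, and sequence was read from GRCh37. Genes were counted from the start of any of their annotated transcripts. The members, motifs and gene lists were chosen with earlier results of these data known. Named were the 5 highest-scoring kept and new regions, the 5 lost regions highest in PC3 or NCI-H660 siNC JUN, the widest lost region of 5 so chosen, and the listed genes with a region within 10 kb. Overlaps and motif searches were tested on simulated lists and against bedtools. Analyses used Python 3.11.15, pandas 2.3.3 and pysam 0.24.0.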

Additional observations from a re-analysis of the deposited data

How the results depend on the processing

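Each condition had 1 list of unknown depth and the siNC list had no score, so replicate error, differences in calling and weak siNC regions could not be assessed. No paired analysis was possible because each group held 1 list. Of 45 recomputed values of the comparisons, 21 stayed within the interval of the reported value, 20 left it with the same sign and 4 changed sign. The kept and new shares were 49.6% and 38.6% with no removal, 28.8% and 60.9% with regions in 12 or more lists removed, and 19.9% and 78.4% with regions in 6 or more removed. They were 36.4% and 36.7% at siFOXA1 scores of at least 50, and 24.7% and 50.4% in the accessible subset, an alternative added after seeing the data. The new share was 43.4% at scores of at least 30, and the kept share 36.6% on autosomes and X away from large gaps. The log2 ratio of region numbers was -0.09 (-0.27 to 0.09) with regions in 6 or more lists removed, -0.79 for regions of at least 218 bp, -0.58 for accessible regions and -1.01 in the accessible subset. With regions in 6 or more lists removed, the lost minus kept difference was 2.14 points (-2.91 to 4.88) for promoters. For AP-1 it was 6.60 (-3.10 to 14.7), and both intervals included 0. For accessibility it was 22.3 (11.7 to 31.8), and with the looser forkhead motif over all members the difference was 20.8. The sign changed in the accessible subset for promoters (-4.44), AP-1 (-3.81) and PC3 FOXA2 (12.1), and with either of the other PC3 FOXA2 lists (27.7 points). The cause was not tested.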

Other observations

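The androgen receptor half-site AGAACA did not separate the classes: it was present within 100 bp of the centre in 14.4% of kept, 13.9% of lost and 14.3% of new regions, against 13.4 to 15.3% of the windows 2 kb away. The ETS motif CGGAAG was present in 2.78%, 4.62% and 2.01%, against 1.94 to 2.36% nearby. The GC box GGGCGG was present in 8.47%, 11.9% and 8.03%, against 2.85%, 4.33% and 2.21% nearby. In the accessible subset the GC box was more frequent in kept (21.2%) than in lost regions (15.1%), a difference of -6.10 points (-11.6 to -1.12).

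The strength of the PC3 JUN region at the same place did not order the kept share. From the lowest to the highest quartile of the PC3 siNC JUN score, 51.4%, 50.4%, 37.5% and 51.4% of the LNCaP siNC regions were kept. Within each quartile the share was lower with a forkhead motif, at 36.4%, 19.5%, 22.5% and 21.7%, than without one, at 53.4%, 55.7%, 40.1% and 57.3%. In the lowest quartile the intervals of the 33 regions with (22.2 to 53.4%) and the 253 without (47.2 to 59.4%) overlapped.

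By chromosome, lost regions outnumbered kept ones on every autosome, whereas X held 26 kept and 19 lost and Y 58 kept and 11 lost regions. New regions outnumbered lost ones on 2 chromosomes, 18 (33 against 26) and Y (13 against 11).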
